A study of Rattus norvegicus with 6 samples.

Results

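Hmox1 and Nqo1 are antioxidant genes that NRF2 (Nfe2l2) is known to drive. They were chosen by identifier, as ENSRNOG00000014117 (Hmox1) and ENSRNOG00000012772 (Nqo1), because Icariin is a flavonoid. The rule used no value of these libraries, although earlier results of the series were known when it was set. Both were listed, 2 of the 26405 genes measured. The table gave identifiers without symbols, so the pairing of each symbol with its identifier rested on the choice of the genes and was not checked against an annotation here. The libraries were labelled as primary smooth muscle cells grown from small blood vessels of wild-type rats. Cells were starved of serum in both groups. The 3 Control cultures then stayed in fresh medium free of serum and added growth factors, and the 3 Icariin cultures received Icariin, a prenylated flavonoid glycoside of Epimedium plants. The series description dates Control RNA to 24 h and Icariin RNA to 48 h, and if so treatment and time cannot be told apart. The study's methods instead describe RNA from mouse C2C12 myotubes, with the same treatment time for both groups, while all 26405 identifiers in the table are those of rat genes.

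NRF2 is a transcription factor that the adaptor Keap1 holds in the cytoplasm and marks for degradation. When reactive molecules modify Keap1, NRF2 enters the nucleus and binds antioxidant response elements, short DNA motifs near genes for detoxification, glutathione synthesis and iron handling. Hmox1 encodes haem oxygenase-1, which breaks haem down to biliverdin, carbon monoxide and iron. In the vessel wall it is known as an inducible, protective enzyme. Nqo1 encodes a cytosolic quinone reductase that spends NAD(P)H to reduce quinones to hydroquinones, and it is a common readout of NRF2 activity. Hmox1 also answers to other inputs, among them the haem-sensing repressor Bach1 and several stress-activated factors.

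The series asks how Icariin changes gene expression against untreated cells, and here the question was put to these 2 genes. For neither gene was the difference between the groups larger than the spread among replicates. Hmox1 was 1.88-fold higher and Nqo1 2.21-fold higher with Icariin, as the ratio of geometric means of FPKM + 1 (n = 3 per group), but both genes overlapped between the groups. FPKM scales the fragments of a gene by the length of its transcript and by the total of the library. In cultures measured as a whole, a change in the share of cells that express a gene and a change in its mRNA per cell cannot be told apart. Each estimate leaned on a single culture, which was the highest Icariin culture for Hmox1 and the lowest Control culture for Nqo1.

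Hmox1 was measured at 47.5, 28.1 and 25.5 FPKM in Control 1, 2 and 3, and at 59.5, 18.4 and 211 FPKM in Icariin 1, 2 and 3. Icariin 3 was the highest and Icariin 2 the lowest of all 6 libraries, so the Control values lay inside the Icariin range. The 3 Controls stayed within 1.86-fold of each other, whereas the Icariin libraries spanned 11.5-fold. Group levels were 33.7 ± 12.0 FPKM in Control and 96.4 ± 102 FPKM in Icariin (SD, n = 3 each), and the medians were 28.1 and 59.5 FPKM. The SD of the Icariin group was thus larger than its mean.

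Nqo1 was measured at 2.33, 57.5 and 38.0 FPKM in Control 1, 2 and 3, and at 110 FPKM, 26.7 FPKM and 25.6 FPKM in Icariin 1, 2 and 3. Control 1 was far below the rest, Icariin 1 was the highest, and the other two Icariin libraries were lower than Control 2 and Control 3. Control libraries spanned 24.6-fold and Icariin libraries 4.30-fold. Group levels were 32.6 ± 28.0 FPKM in Control and 54.2 ± 48.5 FPKM in Icariin (SD, n = 3 each). The medians ran the other way, at 38.0 FPKM in Control and 26.7 FPKM in Icariin.

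**Figure D1:**
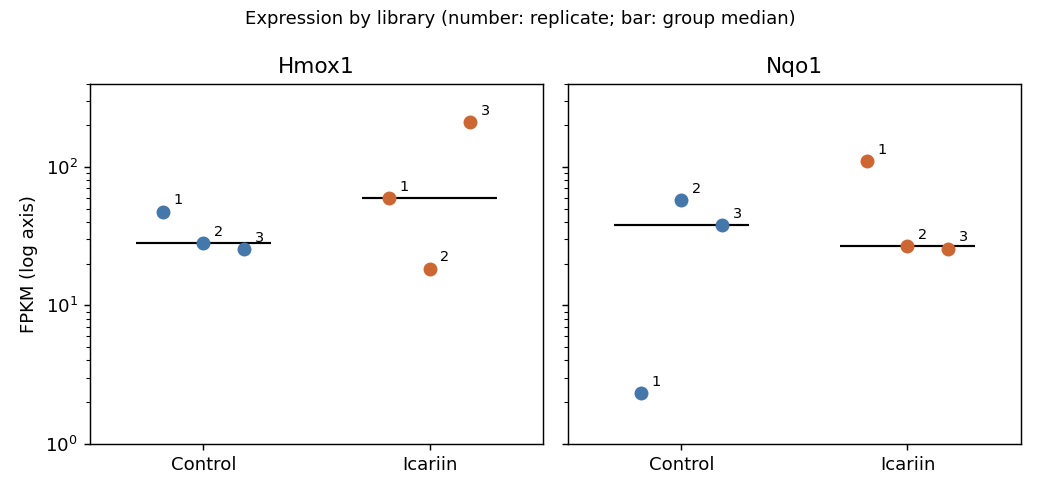
FPKM of Hmox1 (left) and Nqo1 (right) on a log axis in the 3 Control and 3 Icariin libraries; each point is a library with its replicate number and each bar a group median. The groups overlap for both genes, with Hmox1 highest in Icariin 3 (211 FPKM) and Nqo1 lowest in Control 1 (2.33 FPKM).

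The place of each gene within its own library, which no scaling between libraries can move, was read as the share of detected genes (above 0) that had a lower FPKM. Hmox1 lay above 92.8%, 88.0% and 87.2% of the genes detected in Control 1, 2 and 3. In Icariin 1, 2 and 3 it lay above 94.1%, 82.1% and 98.3%, so it was among the more abundant mRNAs in every culture. Nqo1 lay above 93.7% of the detected genes in Control 2, 91.0% in Control 3 and only 44.6% in Control 1. With Icariin it lay above 96.8%, 87.3% and 86.3% in libraries 1, 2 and 3, near its position in Control 2 and Control 3.

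Across all genes, limma was fitted to log2(FPKM + 1) for 10258 genes that reached 1 FPKM in 3 or more libraries, a filter both genes passed. Hmox1 had a log2 fold change of 0.91 (standard error 0.90, 95% confidence interval -1.04 to 2.86, limma adjusted p = 0.773). Nqo1 had a log2 fold change of 1.14 (standard error 1.06, 95% confidence interval -1.17 to 3.46, limma adjusted p = 0.756). As ratios of FPKM + 1, Icariin to Control, these intervals run from 0.488 to 7.26 for Hmox1 and from 0.445 to 11.0 for Nqo1, so the 6 libraries did not settle the direction of either gene. Over all tested genes the log2 fold change had a median of 0.11, and relative to it Hmox1 stood at 0.81 and Nqo1 at 1.04. Exact permutation tests over the libraries gave p = 0.6 for each gene (two-sided, 3 against 3, for which 0.1 is the smallest possible).

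Read against the whole table, the 2 genes did not stand out. Limma called 0% of tested genes at an adjusted p under 0.05 with an absolute log2 fold change over 1, so 0 of 2 members called is no feature of these genes. At an unadjusted p under 0.05, 1069 genes passed (10.4%) and neither member was among them. The groups did not overlap in 16.9% of tested genes, again without either member. A larger absolute log2 fold change was seen in 32.7% of tested genes for Hmox1 and in 22.5% for Nqo1, and a smaller p in 42.4% and 40.0%.

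Each culture was then left out in turn. Without Icariin 3 the log2 fold change of Hmox1 dropped from 0.91 to 0.04, which is -0.08 relative to the median of all genes in that fit. Without Icariin 2, the culture lowest in Hmox1, it was 1.76 (limma adjusted p = 0.581). The other 4 omissions left Hmox1 between 0.74 and 1.18. Nqo1 reversed without Control 1, to -0.14 on the log2 scale (95% confidence interval -2.10 to 1.83, limma adjusted p = 0.973). Without Icariin 1, the culture highest in Nqo1, it was 0.47, and without Control 2 it was 1.93. Of all tested genes, 42.5% changed sign on the loss of some library. Among the 3354 tested genes whose absolute log2 fold change was at least that of Hmox1, 4.77% did so, Nqo1 among them and Hmox1 not.

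**Figure D2:**
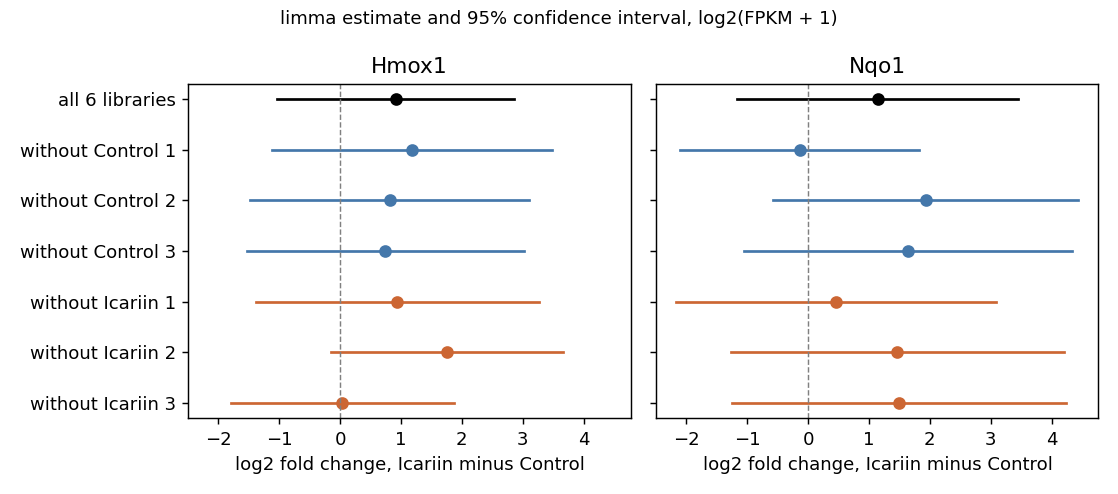
Log2 fold change of Hmox1 (left) and Nqo1 (right), Icariin minus Control, with all 6 libraries and with each library left out; points are limma estimates on log2(FPKM + 1) and lines their 95% confidence intervals. Every interval includes 0, Hmox1 falls to 0.04 without Icariin 3, and Nqo1 falls to -0.14 without Control 1.

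The same cultures were compared with the rest over all tested genes. Control 1, where Nqo1 was lowest, held the lowest value of 18.0% of the tested genes, near the 17.9% of Control 3. Equal values were counted for the library listed first, and Control 1 came first. Its place among the 6 libraries (15.0% to 18.0%) is therefore not settled. Icariin 3, where Hmox1 was highest, held the highest value of 20.3% of tested genes, the largest share of the 6 libraries (13.5% to 20.3%). The table also held values of 1e6 FPKM or more in 4 other genes and 4 libraries, and none in either member. Each such value exceeds the summed FPKM of all remaining genes in any library (313426 to 364457) and is not plausible as an expression level. How these values arose, and whether the same step touched other values, those of Hmox1 and Nqo1 included, was not tested, so the FPKM values given here are only as sound as the deposited table.

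Next, both genes were followed within each culture, since FPKM is per length and their levels can be set side by side. Nqo1 exceeded Hmox1 in 4 libraries. The ratio of Nqo1 to Hmox1 in FPKM was 2.04 in Control 2, 1.49 in Control 3, 1.85 in Icariin 1 and 1.45 in Icariin 2. In the remaining libraries Hmox1 was far ahead, with a ratio of 0.0491 in Control 1 and 0.121 in Icariin 3. The low ratio in Control 1 came with the low Nqo1 value, and in Icariin 3 with the high Hmox1 value, so each group held 1 such culture and 2 with a ratio near those of the other group.

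On the log2 scale with 1 added to each FPKM, the ratio averaged -0.77 ± 2.69 in Control and -0.53 ± 2.14 in Icariin (SD, n = 3 each). The difference of 0.23 was far smaller than either SD (exact permutation test, two-sided, p = 0.9). It was negative without Control 1 (-1.32), without Icariin 1 (-0.47) and without Icariin 2 (-0.29), and was 1.46 without Icariin 3, so these libraries give no direction for it.

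No relation between Hmox1 and Nqo1 was detected over the libraries. Over the 6 libraries, Pearson's r of log2(FPKM + 1) was -0.06 (exact permutation p = 0.772) and Spearman's rho was -0.09 (exact permutation p = 0.919). This was the only relation between measures tested, so adjustment leaves these p-values as they are. Without Icariin 2 and Icariin 3, the libraries farthest from the median in Hmox1, r was -0.11. That choice looked at Hmox1 alone, so Control 1, far the lowest in Nqo1 (2.33 FPKM), stayed in. Leaving out Control 1, alone or with Icariin 3, was not tried. Whether the lack of a relation rests on these libraries was therefore not tested, and the r of -0.11 does not settle it. Apart from Control 1 and Icariin 3, both genes fell in the same order from high to low: Icariin 1, Control 2, Control 3 and Icariin 2. That subset was picked after seeing the values, so the shared order is given as a description. Of the other tested genes, 60.8% had a higher r with Hmox1 than Nqo1 had. Groups of 3 are too small for a correlation within each.

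**Figure D3:**
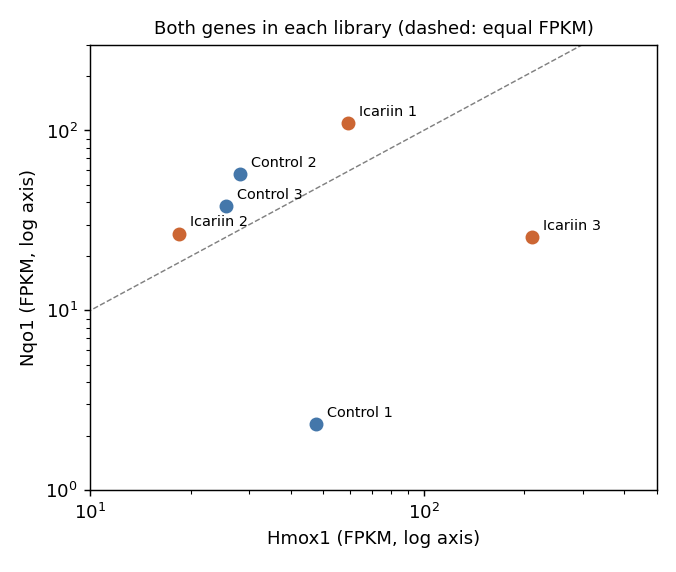
Nqo1 against Hmox1 in FPKM, both on log axes, with a point for each library coloured by group and a dashed line at equal FPKM. The other libraries lie above the line at ratios of 1.45 to 2.04, and Control 1 and Icariin 3 lie far below it at 0.0491 and 0.121.

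The replicate spread of both genes was set beside that of the 500 tested genes nearest in mean level. Hmox1 had a pooled SD between replicates of 1.26 on the log2(FPKM + 1) scale, wider than 69.8% of genes of like level, whose median SD was 0.98. Nqo1 had an SD of 1.79, wider than 90.4% of genes of like level, whose median SD was 1.01. By group, the 3 Control values of Hmox1 were fairly close, and 73.8% of like genes spanned as much or more in Control. Its Icariin values were spread wide, with 13.2% of like genes spanning as much or more. For Nqo1 the wide group was Control, where 7.0% of like genes spanned as much or more, against 36.2% in Icariin.

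**Figure D4:**
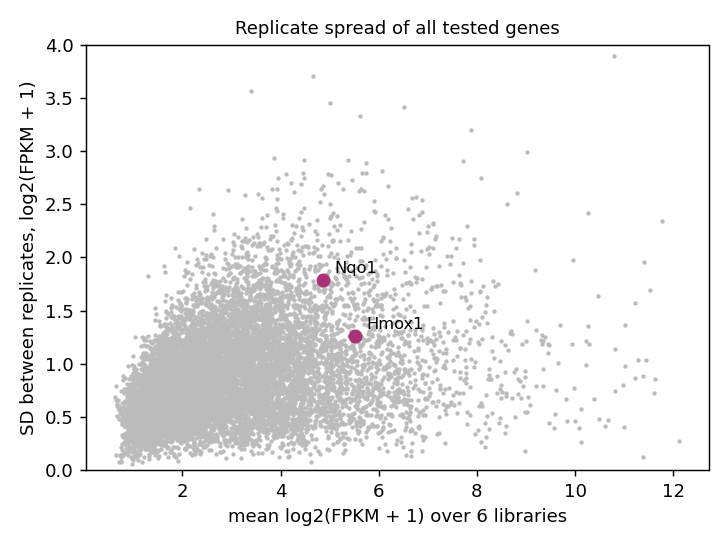
SD between replicates (pooled over both groups, n = 3 each) against the mean of log2(FPKM + 1) over 6 libraries, with a grey point for each tested gene; 5 genes lie outside the axes. Nqo1 (SD 1.79) sits in the upper part of the cloud at its level and Hmox1 (SD 1.26) nearer its middle.

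The genes that followed each member most closely were sought by Pearson's r of log2(FPKM + 1) over the 6 libraries, among the other 10257 tested genes. For Hmox1 this was ENSRNOG00000019976, at r = 0.988. It was at 1.54, 1.10 and 1.00 FPKM in Control 1, 2 and 3 and at 2.52, 0.723 and 8.43 FPKM in Icariin 1, 2 and 3, the same order of libraries as Hmox1. For Nqo1 it was ENSRNOG00000012850, at r = 0.991. It was at 5.74, 11.0 and 9.31 FPKM in Control 1, 2 and 3 and at 11.5, 8.67 and 8.85 FPKM in Icariin 1, 2 and 3, low in Control 1 as Nqo1 was. Each was picked as the highest r of so many genes over 6 points, and is given as a description. The table names no symbols for them.

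The proximal promoter of Nqo1 is shown as the regulatory stretch nearest to its start. Elements farther upstream, where antioxidant response elements often lie, are outside it and were not searched. Of the 2 genes, Nqo1 matched an entry of the RefSeq promoter table by symbol. RefSeq places the 250 bases before the start at chr19:52220268-52220517 of GRCr8, minus strand, written 5′ to 3′ in lower case throughout because no searched motif was found to mark.

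Nqo1: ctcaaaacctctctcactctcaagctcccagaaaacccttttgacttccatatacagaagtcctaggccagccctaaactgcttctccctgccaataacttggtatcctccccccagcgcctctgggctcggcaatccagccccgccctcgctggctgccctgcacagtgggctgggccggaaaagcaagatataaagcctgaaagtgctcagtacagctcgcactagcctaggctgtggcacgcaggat

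The core of the antioxidant response element, TGACNNNGC, and the AP-1 site, TGANTCA, were searched on both strands of the 300-base window that adds 50 bases after the start. Neither had a match in the Nqo1 window. Of all 33469 RefSeq windows of the same kind, 12.1% held the first motif and 7.33% the second. The absence says only that these letters are not in this window.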

How the data were processed

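The authors deposited 1 table of FPKM values with a column for each of 6 RNA-seq libraries (3 Control, 3 Icariin, unpooled). The submitters' processing notes name Bowtie2, RSEM 1.3.1 and DESeq2 1.4.5. The rat annotation release is not given in the sources used here. Columns were matched to samples by library name, despite a spelling difference, and 2 rows that repeated an identifier were dropped. The table gives no counts, so depth is unknown and precision rests on 3 libraries per group. Between 13432 and 14272 genes were above 0 per library. The labels do not say whether replicates came from separate animals, so p-values measure the spread between these cultures.

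The groups were compared by limma 3.58.1 (R 4.3.3; lmFit, eBayes with trend) fitted to log2(FPKM + 1) over 10258 genes, with Benjamini-Hochberg adjustment over all of them. The test was checked on simulated data. The check required estimates close to the true change, and recovery of changed genes only at a spread below that of these data. It is no assurance that real changes would be called at the spread seen here. Fold changes on this scale understate those of low genes. Exact permutation tests used scipy 1.17.1. The most alike gene was, by rule, the one with the highest Pearson's r. A list of NRF2 pathway genes and cell type markers was not analysed, because 0 genes of the RefSeq table carry an Ensembl identifier, so the labelled cell type was not checked. The genes and lists were chosen with earlier results of these data known.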

Additional observations from a re-analysis of the deposited data

How the results depend on the processing

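With unadjusted in place of adjusted p-values, 1032 genes passed together with the fold-change threshold, against 0 genes with limma as reported and under every other pseudocount, filter, scaling, limma setting and omission tried. Hmox1 stayed higher with Icariin in all 17 alternatives, at a log2 fold change from 0.76 to 1.05 with all libraries and from 0.04 to 1.76 with 1 left out (adjusted p from 0.581 to 0.992, limma). Nqo1 stayed higher in 15 of 17, and ranged from -0.14 to 1.93 with 1 library left out (adjusted p from 0.643 to 0.973, limma). For both genes, changing the filter, the fit without trend and the replicate block could not move the estimate (0.91 for Hmox1, 1.14 for Nqo1). The direction under those settings was fixed in advance and adds no support. By group medians, an alternative chosen after seeing the data, Nqo1 was at -0.49 and Hmox1 at 1.05. The planned settings with all libraries took Hmox1 no higher than 0.92. The difference in the Nqo1 to Hmox1 log2 ratio was 0.23 to 0.37 with all libraries and -1.32 to 1.46 with 1 left out, negative in 3 of 6 omissions. Median-of-ratios scaling moved the median log2 fold change of all genes from 0.11 to -0.01 and gave 0.76 for Hmox1 and 0.99 for Nqo1.

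With the replicate block, 0 genes were called, and the log2 fold changes of Hmox1 (0.91) and Nqo1 (1.14) had adjusted p = 0.790 and 0.782 in limma. Deviations of same-numbered libraries correlated at -0.0203, 0.0213 and -0.0196, so no effect shared by replicate number was seen in expression. Whether the cultures were paired in the experiment is not settled by these values. No counts were given, so counting error could not be assessed, least of all for Nqo1 in Control 1.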
